A study of Mus musculus with 2 samples.

Results

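The 6 genes described here, *Rgs2*, *Rgs4*, *Rgs5*, *Rgs9*, *Rgs16* and *Rgs17*, belong to the family of regulators of G protein signaling (RGS) and were chosen by their listed symbols. They are 6 of the 31053 genes in the deposited matrices and 6 of the 21 genes named Rgs with a number. *Rgs2* and *Rgs16* were picked from the family for patterns already seen in these data. The order of their levels and their ratios are thus descriptions and support nothing by themselves. Islet cells of 2-week-old C57BL/6J mice homozygous for loss of *Npc1* (Npc1KO, *Npc1*-/-), the gene of a lysosomal cholesterol transporter, were compared with those of wild type (WT) littermates, both from matings of heterozygotes. The loss affected the whole animal and not only the islet. Each genotype was 1 library of islets pooled from 3 female mice, dissociated with trypsin and sequenced from the 3′ end of transcripts on the 10x Genomics platform. With 1 library per genotype there was no replicate spread and no difference was tested. All intervals are 95% intervals that cover counting error only, exact Poisson for levels, Clopper-Pearson for shares and conditional binomial for ratios.

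RGS proteins bind the active, GTP-loaded α subunit of heterotrimeric G proteins and speed up the hydrolysis of GTP, which shortens the signal of G protein-coupled receptors. In islets such receptors carry incretin, glucagon, somatostatin, adrenergic and muscarinic input to the hormone-secreting cells. RGS2 acts mainly on Gq, RGS4, RGS5 and RGS16 act on Gi and Gq, RGS17 belongs to the group that acts on Gz and Gi, and RGS9 works as a dimer with the β subunit encoded by *Gnb5*.

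Of 8569 WT and 7646 Npc1KO barcodes, 4628 and 4269 were kept, with over 1000 genes, under 50000 unique molecular identifiers (UMIs, one per captured transcript), under 10% mitochondrial UMIs and at most 0.1% hemoglobin UMIs. The 2 libraries shared 3 of the kept barcode sequences. *Npc1* was counted at 790 UMIs in WT and 391 in Npc1KO, 8.40 and 4.14 CPM (UMIs of the gene per 1e6 UMIs), so its transcript was lower but not absent in the library labelled Npc1KO. Where the lost part of *Npc1* lies relative to the counted 3′ ends is not given in the sources used here. Barcodes were classed by their leading hormone at 10% or more of their UMIs, and insulin-led barcodes were split at 1% *Ppy* plus *Pyy*, the pancreatic polypeptide (PP) family, into PP-poor (1342 in WT, 1005 in Npc1KO) and PP-rich (491 and 821). There were 1048 and 857 glucagon-led, 189 and 141 somatostatin-led and 411 and 442 PP-led barcodes. Barcodes without a leading hormone were endothelial-like (436 and 435), stellate-like (243 and 259) or mesenchymal-like (61 and 67) by markers that held no Rgs gene, or fell in no class (407 and 242). Median depth ran from 6402 UMIs per barcode in stellate-like cells to 31997 in PP-poor insulin-led cells. In insulin-led cells more UMIs came from hormone genes than from all others, which lowers the CPM of every other gene there.

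The promoters of *Rgs2* and *Rgs16*, whose levels were higher in PP-rich than in PP-poor insulin-led cells, and of *Rgs4* and *Rgs5*, neighbors that were both highest in stellate-like cells, are shown for reference. These are the 250 bases before the transcript start in RefSeq (GRCm38.p6), written 5′ to 3′ on the strand of the gene. Capitals mark motifs found on either strand among TGACG (the core of the cyclic AMP response element), the full element (TGACG followed by TCA, which holds the core), CACGTG (E-box), TGANTCA (AP-1), CCAAT and TATAAA.
Rgs2 promoter, chr1:144004150-144004399, minus strand: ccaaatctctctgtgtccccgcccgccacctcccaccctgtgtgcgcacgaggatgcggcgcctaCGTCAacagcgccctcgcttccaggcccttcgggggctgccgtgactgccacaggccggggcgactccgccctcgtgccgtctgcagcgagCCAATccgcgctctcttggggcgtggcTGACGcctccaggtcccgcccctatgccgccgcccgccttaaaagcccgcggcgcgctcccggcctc
Rgs16 promoter, chr1:153740103-153740352, plus strand: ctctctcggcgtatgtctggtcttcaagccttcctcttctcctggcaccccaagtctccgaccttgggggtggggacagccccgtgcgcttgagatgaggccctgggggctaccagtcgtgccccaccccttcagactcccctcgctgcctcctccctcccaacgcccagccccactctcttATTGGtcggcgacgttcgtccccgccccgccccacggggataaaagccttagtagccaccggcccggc
Rgs4 promoter, chr1:169747643-169747892, minus strand: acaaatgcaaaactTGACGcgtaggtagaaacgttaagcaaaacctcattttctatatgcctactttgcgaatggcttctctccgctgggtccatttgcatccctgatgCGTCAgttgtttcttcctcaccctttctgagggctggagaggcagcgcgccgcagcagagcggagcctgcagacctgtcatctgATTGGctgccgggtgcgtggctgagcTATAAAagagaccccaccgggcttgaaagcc
Rgs5 promoter, chr1:169655251-169655500, plus strand: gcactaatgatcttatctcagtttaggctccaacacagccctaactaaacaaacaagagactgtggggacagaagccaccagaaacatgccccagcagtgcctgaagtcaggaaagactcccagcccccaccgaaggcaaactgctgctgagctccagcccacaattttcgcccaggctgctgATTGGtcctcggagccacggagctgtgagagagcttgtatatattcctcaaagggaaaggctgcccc
*Rgs2* held the core TGACG 185 to 181 and 67 to 63 bases before its start, and *Rgs4* held it 236 to 232 and 141 to 137 bases before its start. *Rgs16* and *Rgs5* held none of the searched letters except CCAAT. Of 32851 promoter windows of this length, 17.8% held TGACG, 1.55% the full element, 6.02% the E-box, 6.75% the AP-1 motif, 33.8% CCAAT and 12.4% TATAAA. A match is a description of the letters and shows no binding. In the GENCODE annotation of GRCm38, *Rgs2* (ENSMUSG00000026360) lies at chr1:143999338-144004161, *Rgs16* (ENSMUSG00000026475) at chr1:153740349-153745468, *Rgs5* (ENSMUSG00000026678) at chr1:169655501-169695813 and *Rgs4* (ENSMUSG00000038530) at chr1:169741477-169747642. *Rgs5* and *Rgs4* are 45663 bp apart with 0 protein-coding genes between them. *Rgs9* (ENSMUSG00000020599) lies at chr11:109225355-109298129 and *Rgs17* (ENSMUSG00000019775) at chr10:5825663-5922400. *Rgs16* overlaps the antisense gene *Gm28513*, and whether the counting used strand is not given in the sources used here.

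The classes with the highest levels differed among the 6 genes, and some genes shared a class. *Rgs5* and *Rgs4* were highest in stellate-like cells, and *Rgs9* and *Rgs2* in somatostatin-led cells, in both libraries, though for *Rgs2* in WT not above the endothelial-like class beyond counting error, and with hormone genes out of the totals the PP-led class came first there, at 163 against 158 CPM. *Rgs16* was highest among the hormone-led classes in PP-rich insulin-led cells, and *Rgs17* in somatostatin-led cells. For *Rgs17* in WT the somatostatin-led class was not above the glucagon-led class beyond counting error. Over all 8 classes the highest class was the same in both libraries for 4 of the 6 genes, and the exceptions were *Rgs16* and *Rgs17*, each of which had a mesenchymal-like value on top in 1 library that did not differ from the next class beyond counting error.

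**Figure D1:**
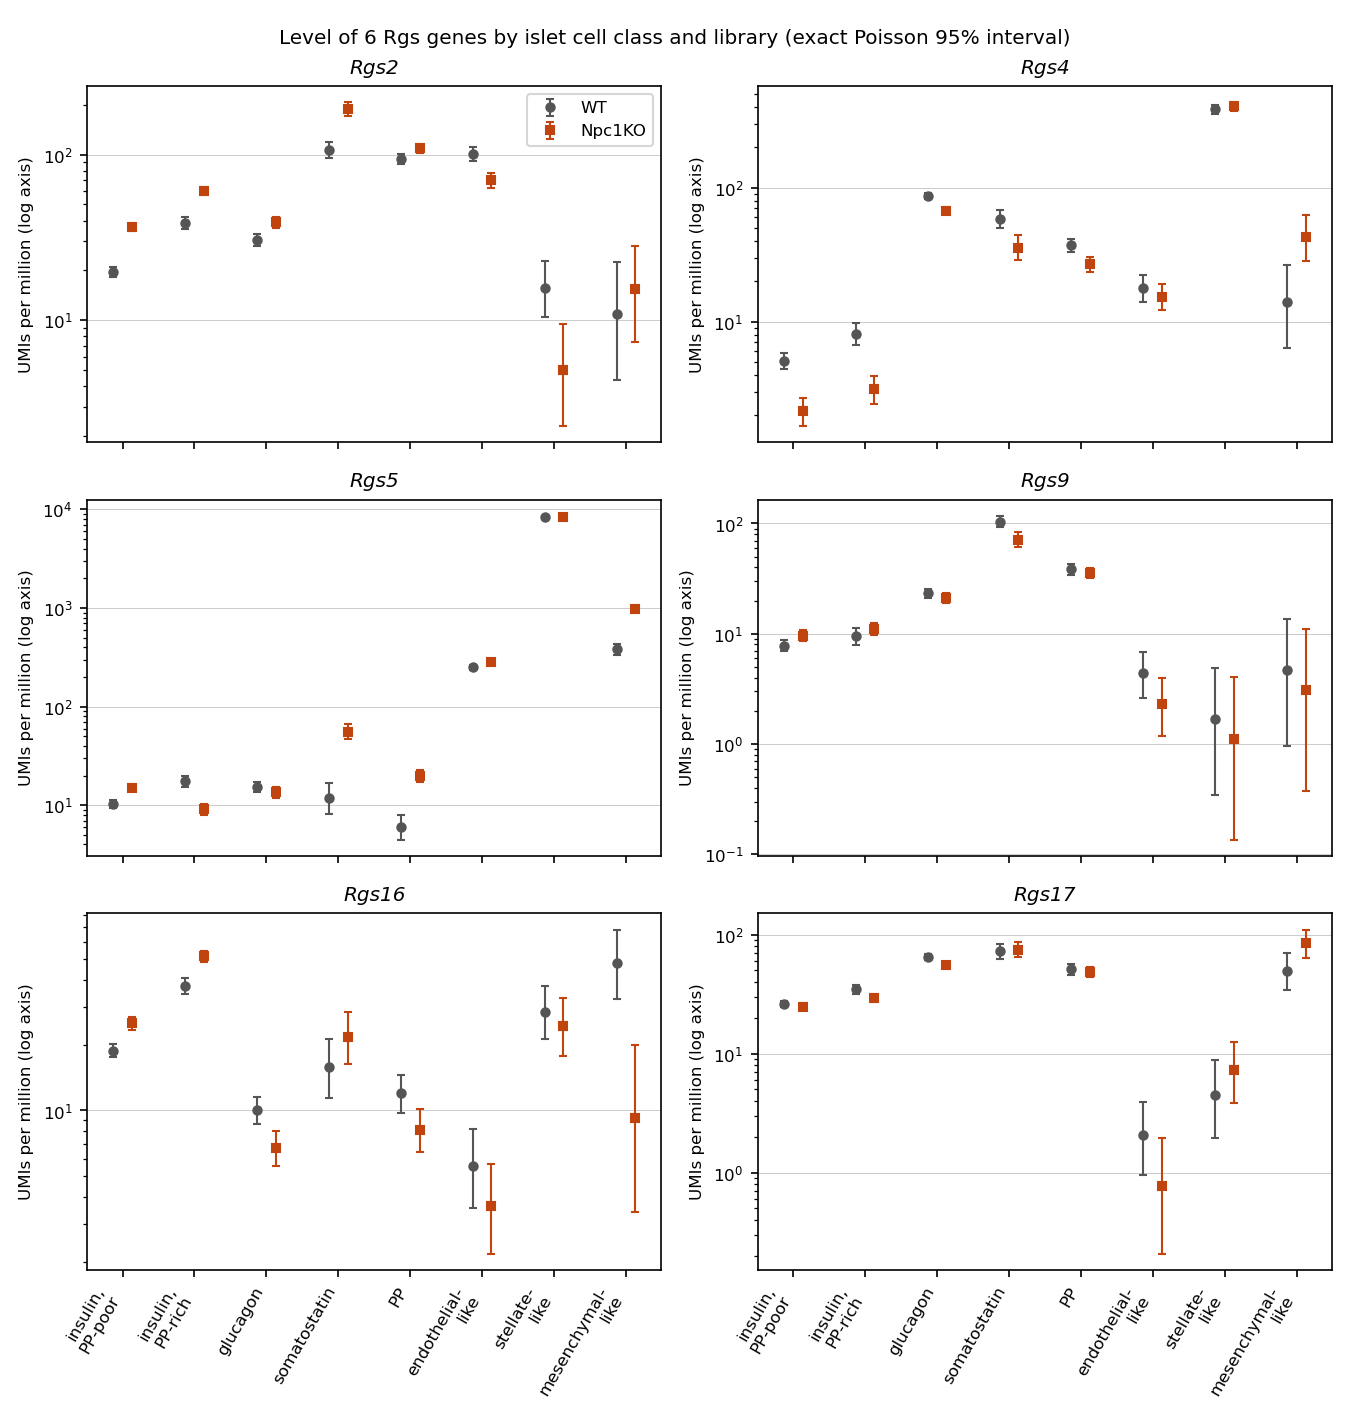
Level of each *Rgs* gene in CPM (log axis) for the 8 classes, with WT as circles and Npc1KO as squares and exact Poisson 95% intervals as bars. *Rgs5* in stellate-like cells stands near 8458 and 8330.0 CPM, while *Rgs9* and *Rgs17* are lowest in stellate-like or endothelial-like cells.

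*Rgs5*, a marker of pericytes, was counted in all 243 WT and all 259 Npc1KO stellate-like barcodes, although it was not used to define them. Its level there was 8458 CPM (8323 to 8594) in WT and 8330.0 CPM (8197 to 8465) in Npc1KO, from 15099 and 14919 UMIs. The stellate-like levels overlapped between genotypes, with a log2 ratio of Npc1KO over WT of -0.02 (-0.05 to 0.02) relative to the median gene of the class. In mesenchymal-like cells *Rgs5* was at 380 CPM in WT and 985 CPM in Npc1KO. These cells also held the 10 stellate markers, such as *Pdgfrb* and *Notch3*, at a summed 2137 CPM in WT and 2776 CPM in Npc1KO. In stellate-like cells the sum was 8353 and 8824 CPM. *Rgs5* UMIs per stellate-marker UMI were 0.178 and 0.355 in mesenchymal-like and 1.01 and 0.944 in stellate-like cells. Whether the markers came from stellate cells among the mesenchymal-like barcodes, and their part in the *Rgs5* level, was not tested.

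In the 5 hormone-led classes *Rgs5* ranged from 6.01 CPM in WT PP-led cells to 55.9 CPM in Npc1KO somatostatin-led cells, but very few barcodes carried it. After every barcode was thinned to 5000 UMIs, between 0.889% (WT glucagon-led) and 2.88% (Npc1KO somatostatin-led) of hormone-led barcodes held an *Rgs5* UMI, against 100% of stellate-like barcodes in both libraries. Barcodes with at least 10 *Rgs5* UMIs numbered 1 to 8 per class and library, and they held 71.4% to 97.1% of the *Rgs5* UMIs of their class. The same barcodes held between 33 and 350 UMIs of the 10 stellate markers per class. Without the hormone-led barcodes that had 5 or more stellate-marker UMIs, *Rgs5* was at 0.837 CPM in WT and 1.36 CPM in Npc1KO in PP-poor insulin-led cells, and at 2.23 and 2.56 CPM in somatostatin-led cells. The somatostatin-led difference of 11.8 CPM in WT against 55.9 CPM in Npc1KO thus rested on 1 WT and 3 Npc1KO barcodes, and the log2 ratio was 2.22 with them and 0.19 without them. In PP-led cells the ratio moved from 1.65 to 0.03 when 1 WT and 5 Npc1KO barcodes were left out.

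**Figure D2:**
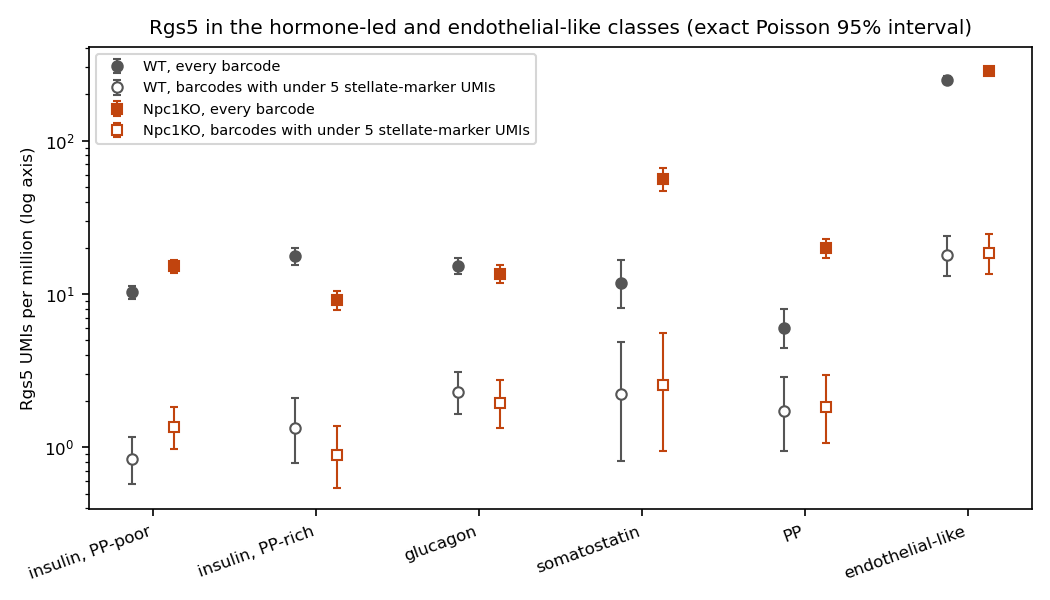
*Rgs5* level in CPM (log axis) in the 5 hormone-led classes and endothelial-like cells, filled for every barcode and open for barcodes with under 5 stellate-marker UMIs, with exact Poisson 95% intervals. The open symbols of the hormone-led classes lie between 0.837 and 2.56 CPM and overlap between genotypes within each class.

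Endothelial-like cells showed *Rgs5* at 250 CPM in WT and 283 CPM in Npc1KO, in 41 of 436 and 54 of 435 barcodes. Leaving out the 123 WT and 157 Npc1KO barcodes with 5 or more stellate-marker UMIs brought these levels to 17.9 CPM (13.02 to 23.9) and 18.4 CPM (13.5 to 24.5). *Rgs4* in endothelial-like cells went from 77 to 1 UMI in WT and from 80 to 1 UMI in Npc1KO in the same step.

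*Rgs4* had a second place of expression besides the stellate-like cells. Stellate-like cells held it at 385 CPM (357 to 415) in WT and 405 CPM (376 to 435) in Npc1KO, and the 2 libraries did not differ beyond counting error (log2 ratio 0.08, -0.08 to 0.23). Glucagon-led cells came next in both libraries, with 87.2 CPM (83.0 to 91.6) in WT and 67.3 CPM (63.5 to 71.3) in Npc1KO. Somatostatin-led cells held 58.6 and 35.8 CPM, PP-led cells 37.1 and 26.7 CPM, and insulin-led cells the least, 5.08 and 2.14 CPM in the PP-poor and 8.12 and 3.12 CPM in the PP-rich class. Leaving out barcodes with stellate markers moved the glucagon-led level from 87.24 to 87.16 CPM in WT and from 67.34 to 67.01 CPM in Npc1KO. At 5000 UMIs per barcode *Rgs4* was detected in 31.7% of WT and 25.6% of Npc1KO glucagon-led barcodes, against 2.12% and 1.10% of PP-poor insulin-led barcodes, the lowest share among hormone-led classes. Their median depths before thinning were 17144 and 19110 UMIs in glucagon-led and 31491 and 31997 UMIs in PP-poor insulin-led barcodes.

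All 5 hormone-led classes had less *Rgs4* in Npc1KO than in WT. The log2 ratio was -1.33 (-1.75 to -0.93) in PP-poor and -1.48 (-1.93 to -1.04) in PP-rich insulin-led cells, where the levels were low, with 209 and 67 UMIs in the PP-poor class and 111 and 71 UMIs in the PP-rich class. In glucagon-led cells the ratio was -0.40 (-0.51 to -0.29), in somatostatin-led cells -0.72 (-1.12 to -0.34) and in PP-led cells -0.53 (-0.78 to -0.29). The direction was the same under all 12 alternative settings in each of these 5 classes, but several settings could hardly change it. The 1.5-fold limit moves no ratio. The 20 CPM limit, the totals without hormone genes and the TMM factor only shift all genes of a class alike. A split at 2% *Ppy* plus *Pyy* alters only the insulin-led classes.

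*Rgs4* in insulin-led cells was also read by the share of UMIs from 9 stress genes (immediate early and heat shock genes such as *Fos* and *Hspa1a*), which differed between the libraries. Among PP-poor barcodes with under 0.01% of UMIs from these genes *Rgs4* was at 3.17 CPM (1.88 to 5.004) in WT and 1.46 CPM (0.891 to 2.25) in Npc1KO, in 186 and 436 barcodes. It was at 3.92 and 2.11 CPM with 0.01 to 0.02%, and at 3.62 and 1.48 CPM with 0.02 to 0.05%. With 0.05 to 0.1% it was at 6.25 and 6.46 CPM in 289 and 83 barcodes, and with 0.1 to 0.5% at 8.16 and 8.39 CPM in 281 and 20 barcodes. WT was thus higher in the 3 lower groups and not in the 2 upper ones. The separate intervals of the genotypes overlapped in each of the 5 groups. Such overlap does not show equal levels, and no interval of the ratio was taken within these groups. In the PP-rich class the values of WT and Npc1KO from the lowest to the highest of these groups were 1.15 and 0.735, 1.29 and 1.72, 4.02 and 3.15, 8.45 and 6.34, and 12.0 and 7.12 CPM, again with overlapping intervals throughout. Without the barcodes with 0.5% or more stress-gene UMIs the log2 ratio stayed at -1.32 in the PP-poor and -1.36 in the PP-rich class. The part of the stress-gene share below that limit in the *Rgs4* difference was not tested.

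Within glucagon-led cells the *Rgs4* level was lower at a higher PP-family share. Barcodes with under 0.3% *Ppy* plus *Pyy* held 97.2 CPM in both libraries, in 186 WT and 98 Npc1KO barcodes. Those with 1 to 3% held 94.8 CPM in WT and 64.3 CPM in Npc1KO, the widest gap of the 5 groups. Those with 3 to 10% held 70.4 and 55.2 CPM, and those with 10% or more 65.1 CPM (47.8 to 86.6) and 47.6 CPM (36.0 to 61.8), where the intervals overlapped.

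*Rgs9* was led by somatostatin-led cells in both libraries. It was at 104 CPM (92.4 to 117) in WT and 71.6 CPM (61.3 to 83.0) in Npc1KO there, at 38.5 and 35.8 CPM in PP-led cells and at 23.2 and 21.2 CPM in glucagon-led cells. Insulin-led cells held 7.81 and 9.60 CPM in the PP-poor class and 9.51 and 11.1 CPM in the PP-rich class, and the stellate-like class 3 and 2 UMIs in all. Each of the first 3 classes lay above the next beyond counting error in both libraries. Thinned to 5000 UMIs, 42.5% of WT and 30.2% of Npc1KO somatostatin-led barcodes held an *Rgs9* UMI, against 2 of 199 and 2 of 200 stellate-like barcodes. The log2 ratio in somatostatin-led cells was -0.55 (-0.83 to -0.28), from 283 UMIs in 189 WT barcodes and 174 UMIs in 141 Npc1KO barcodes. It stayed between -0.60 and -0.53 under the 12 alternatives, some of which could move it little or not at all. In the other 4 hormone-led classes the interval of the ratio included 0.

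The PP-led class was a mixture with respect to *Rgs9*. Of its barcodes, 144 of 411 in WT and 162 of 442 in Npc1KO also had 1% or more of their UMIs from *Sst*, and these held the δ-cell transcription factor gene *Hhex* at 334 and 297 CPM, against 1.76 and 6.59 CPM in PP-led barcodes with under 0.1% *Sst*. *Rgs9* was at 89.3 CPM (WT) and 68.3 CPM (Npc1KO) in the PP-led barcodes with *Sst* and at 17.9 and 20.1 CPM in those without it. The first pair overlapped the somatostatin-led class within each library and the second pair lay near the glucagon-led class. *Rgs17* showed the same split at 76.6 and 66.4 CPM against 39.9 and 40.0 CPM, and *Rgs2* a smaller one at 130.5 and 151 CPM against 79.7 and 88.7 CPM. *Rgs4* was at 39.6 and 35.0 CPM against 36.4 and 23.2 CPM, which overlapped in WT.

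**Figure D3:**
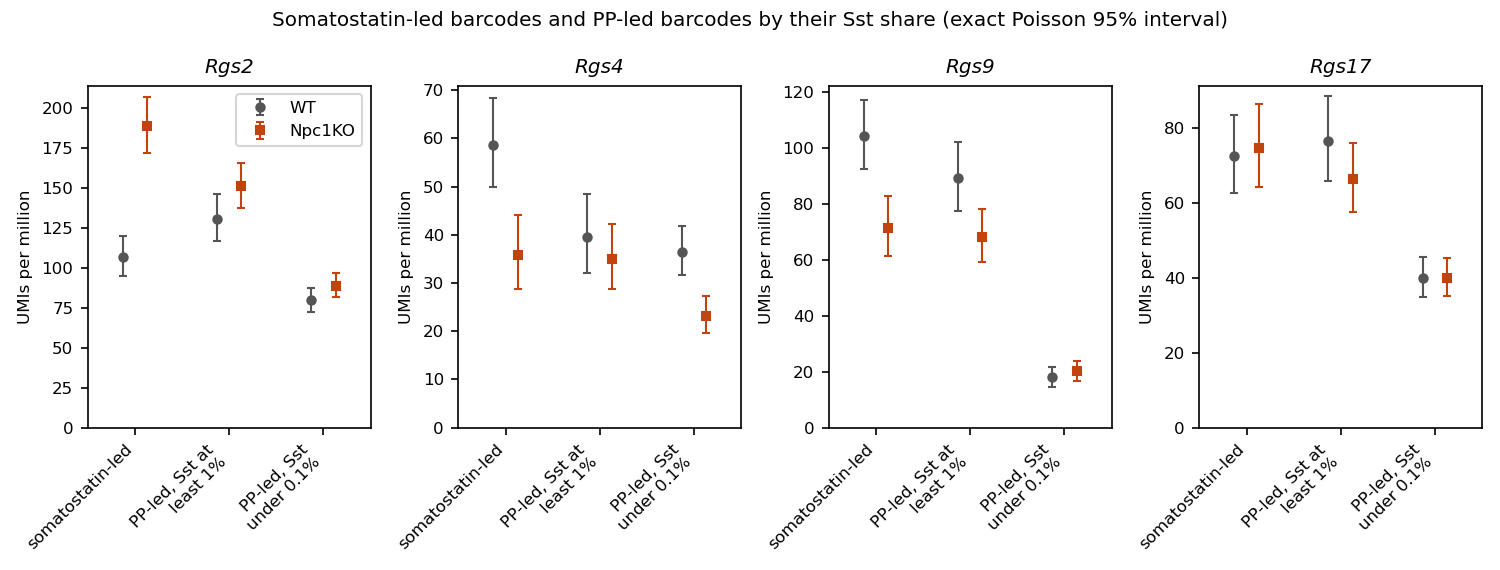
Level in CPM of 4 *Rgs* genes in somatostatin-led barcodes and in PP-led barcodes with at least 1% or under 0.1% *Sst* UMIs, with WT as circles, Npc1KO as squares and exact Poisson 95% intervals. *Rgs9* in PP-led barcodes with *Sst* (89.3 and 68.3 CPM) is far above its level in those with almost no *Sst* (17.9 and 20.1 CPM).

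*Rgs17* was spread over every hormone-led class. Its levels in WT and Npc1KO were 72.6 and 74.8 CPM in somatostatin-led, 64.5 and 55.5 CPM in glucagon-led, 50.9 and 48.6 CPM in PP-led, 34.5 and 29.5 CPM in PP-rich insulin-led and 26.2 and 24.8 CPM in PP-poor insulin-led cells. When 7 hormone genes (the insulins, *Gcg*, *Sst*, *Ppy*, *Pyy* and *Iapp*) were taken out of the totals, the spread among hormone-led classes narrowed to between 63.7 and 107 CPM in WT and between 59.0 and 111 CPM in Npc1KO. Vascular cells nearly lacked it, with 9 and 4 UMIs in endothelial-like and 8 and 13 UMIs in stellate-like cells, while mesenchymal-like cells had 49.7 CPM (34.0 to 70.1) in WT and 84.5 CPM (63.7 to 110.0) in Npc1KO from 32 and 55 UMIs. In hormone-led classes the genotype ratios of *Rgs17* lay within 0.33 of the median gene. The lowest was -0.33 (-0.50 to -0.15) in PP-rich insulin-led cells, and the PP-poor and glucagon-led classes were also below the median gene, at -0.16 and -0.25, with intervals that did not reach 0. In mesenchymal-like cells the ratio was 0.77 (0.13 to 1.46).

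*Rgs2* was high in the somatostatin-led, PP-led and endothelial-like classes and low in stellate-like and mesenchymal-like cells. Somatostatin-led cells held 107 CPM (94.9 to 119.8) in WT and 189 CPM (172 to 207) in Npc1KO, PP-led cells 94.5 and 109 CPM, and endothelial-like cells 101 and 70.1 CPM. In WT the somatostatin-led class did not differ from the endothelial-like class, nor that from the PP-led class, beyond counting error, whereas in Npc1KO each step of this order did. PP-rich insulin-led cells held 38.7 and 60.1 CPM, glucagon-led cells 30.5 and 39.2 CPM and PP-poor insulin-led cells 19.6 and 36.6 CPM. The place of the PP-poor insulin-led class depended on the total used. With the hormone genes *Ins1*, *Ins2*, *Gcg*, *Sst*, *Ppy*, *Pyy* and *Iapp* out of the total it held 47.6 CPM in WT, level with the glucagon-led 46.9 CPM, and 87.1 CPM in Npc1KO, above the glucagon-led 60.02 CPM. Stellate-like cells had 28 *Rgs2* UMIs in WT and 9 in Npc1KO, of which 64.3% and 88.9% lay in 5 barcodes.

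Npc1KO was above WT for *Rgs2* in each of the 5 hormone-led classes and below it in endothelial-like cells. Set against the median gene, the log2 ratio was 0.82 (0.69 to 0.95) in PP-poor insulin-led cells, a 1.77-fold difference, 0.81 (0.60 to 1.03) in somatostatin-led cells, 0.54 (0.39 to 0.69) in PP-rich insulin-led cells, 0.33 (0.17 to 0.50) in glucagon-led cells and 0.14 (0.01 to 0.28) in PP-led cells. Every one of the 12 alternatives kept these directions, though not all of them could change a direction, as described for *Rgs4*. At 5000 UMIs per barcode the share with an *Rgs2* UMI was 8.57% (7.11 to 10.2) in WT and 14.3% (12.2 to 16.6) in Npc1KO among PP-poor insulin-led cells, and 30.9% (24.3 to 38.2) and 54.0% (45.3 to 62.4) among somatostatin-led cells. The background in stellate-like cells was 4.02% and 2.00%. The endothelial-like ratio was -0.54 (-0.74 to -0.33), and -0.40 without barcodes that had 0.5% or more of their UMIs from the 9 stress genes, of which endothelial-like cells had 125 in WT and 52 in Npc1KO. In stellate-like cells the ratio of -1.58 (-2.91 to -0.51) rested on 28 and 9 UMIs, beside a summed endothelial marker level of 431 CPM in WT and 156 CPM in Npc1KO, and the part of these transcripts was not tested.

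*Rgs2* is known as a gene that cyclic AMP and other stimuli induce, so its level is set beside that of the stimulus-induced genes. Most genes tested from a pooled list of immediate early and cyclic AMP-induced genes had the opposite sign. The median of the pooled list describes neither kind alone. In PP-poor insulin-led cells 7 of the 11 tested, of 14 listed, were at least 2-fold lower in Npc1KO and 0 higher, with a median log2 ratio of -1.71, and *Fos* was at 173 CPM in WT and 42.5 CPM in Npc1KO. The 7 were *Fos*, *Fosb*, *Jun*, *Junb*, *Egr1*, *Ier2* and *Dusp1*. Of the 11 tested, 2 were above the median gene as *Rgs2* was, *Pde10a* at 23.4 and 40.06 CPM and *Per1* at 9.92 and 13.5 CPM. *Crem* at 14.5 and 12.6 CPM and *Nr4a1* at 8.22 and 8.61 CPM were below the median gene by less than 2-fold. All these genes were named after their values were seen. Of the 5 heat shock genes 4 were also at least 2-fold lower there, with *Hspa1a* at 131 and 23.1 CPM. In PP-poor barcodes grouped by their share of stress-gene UMIs, *Rgs2* was higher in Npc1KO in each of the 5 groups under 0.5%. Above that limit there were 13 WT and 0 Npc1KO barcodes. With under 0.01% of UMIs from those genes *Rgs2* was at 14.4 CPM (11.5 to 17.9) in WT and 34.6 CPM (31.5 to 37.8) in Npc1KO, and with 0.02 to 0.05% at 17.0 and 39.2 CPM. In PP-rich cells the lowest group held 18.4 CPM (10.5 to 29.9) and 55.1 CPM (49.1 to 61.7). *Rgs16* also was higher in Npc1KO in each of these 5 groups, from 15.3 and 20.1 CPM with under 0.01% to 29.2 and 35.6 CPM with 0.1 to 0.5% in the PP-poor class. The part of a stimulus or of the stress-gene share in the *Rgs2* and *Rgs16* differences was not tested.

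*Rgs16* was the only member that was highest, among hormone-led classes, in insulin-led cells in both libraries. PP-rich insulin-led cells held 37.6 CPM (34.4 to 41.0) in WT and 51.5 CPM (48.6 to 54.5) in Npc1KO, and PP-poor cells 18.9 CPM (17.6 to 20.2) and 25.2 CPM (23.5 to 27.0). Somatostatin-led cells followed among hormone-led classes at 15.8 and 21.8 CPM, then PP-led cells at 12.0 and 8.13 CPM and glucagon-led cells at 10.0 and 6.70 CPM. With the hormone genes out of the totals the PP-rich class reached 82.6 CPM in WT and 109 CPM in Npc1KO, the top class in both libraries. Stellate-like cells held 28.6 and 24.6 CPM, and the mesenchymal-like class 48.1 CPM in WT from 31 UMIs, of which 67.7% lay in 5 barcodes, and 9.22 CPM in Npc1KO from 6 UMIs. The thinned share with an *Rgs16* UMI was 18.7% and 21.1% in PP-rich and 9.86% and 11.3% in PP-poor insulin-led cells. It was 11.6% and 9.5% in stellate-like, 7.7% and 12.2% in somatostatin-led and 11.9% and 4.69% in mesenchymal-like cells. The intervals of the PP-poor class overlapped those of these classes. PP-led cells held 5.45% and 5.35%, glucagon-led cells 3.95% and 3.45% and endothelial-like cells 1.29% and 1.49%. Thinning kept the hormone UMIs, so insulin-led barcodes had fewer other UMIs at this depth. With hormone genes out of the totals PP-poor cells held 45.9 and 59.9 CPM. Stellate-like cells then held 29.4 and 25.1 CPM, somatostatin-led cells 23.4 and 32.3 CPM and mesenchymal-like cells 49.0 and 9.35 CPM. Of these classes only the mesenchymal-like one in WT then overlapped the PP-poor interval.

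The genotype ratio of *Rgs16* had opposite signs within the endocrine classes. It was above the median gene in both insulin-led classes, at 0.33 (0.19 to 0.48) in the PP-poor and 0.36 (0.21 to 0.51) in the PP-rich class. It was below in glucagon-led cells, at -0.61 (-0.96 to -0.26), and in PP-led cells, at -0.63 (-1.08 to -0.18). Each of these 4 directions was the same under all 12 alternatives, with the limit described for *Rgs4*. The somatostatin-led value of 0.45 (-0.16 to 1.06) rested on 43 and 53 UMIs and its interval included 0.

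The insulin-led cells were split by PP-family share at 1%, a limit fixed by the rule for the classes. *Rgs2* and *Rgs16* were higher on the PP-rich side in both libraries. Their levels also varied within the sides, so the limit does not part 2 fixed levels. In the PP-rich class 52 of 491 WT and 58 of 821 Npc1KO barcodes also had 1% or more of their UMIs from *Sst*. In the PP-poor class 0 had. The part of these barcodes in the *Rgs2* and *Rgs16* levels was not tested. Barcodes just under the limit, with 0.3 to 1% *Ppy* plus *Pyy*, held *Rgs16* at 21.6 CPM in WT and 31.5 CPM in Npc1KO, and those just over it, with 1 to 3%, held 38.5 and 46.3 CPM. *Rgs2* was at 22.3 and 40.2 CPM just under the limit and at 35.8 and 53.6 CPM just over it. From the barcodes with under 0.1% to those with 3 to 10%, *Rgs16* went from 16.5 to 36.6 CPM in WT and from 19.9 to 63.0 CPM in Npc1KO, and *Rgs2* from 16.7 to 46.5 CPM and from 37.2 to 69.2 CPM. Both genes were thus higher at 3 to 10% than under 0.1%, though not at every step, since *Rgs16* in WT was level between 1 to 3% and 3 to 10% and *Rgs2* in Npc1KO was lowest at 0.1 to 0.3%, with 28.7 CPM. *Rgs2* was higher in Npc1KO than in WT in each of the 6 groups. *Mafa* and *Ucn3*, markers of mature β cells, had the opposite slope, *Ucn3* from 303 to 67.9 CPM in WT and from 263 to 42.2 CPM in Npc1KO. *Rgs17* spanned less, from 24.3 to 35.9 CPM in WT and from 21.4 to 31.3 CPM in Npc1KO.

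**Figure D4:**
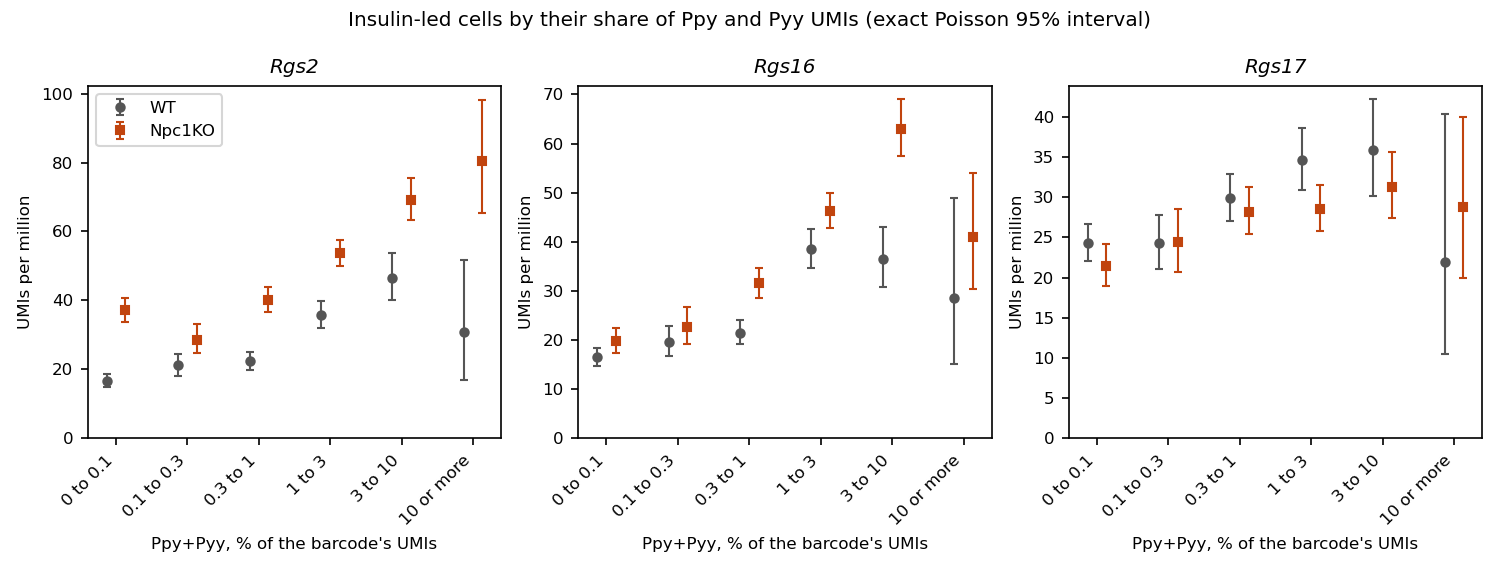
Level of *Rgs2*, *Rgs16* and *Rgs17* in CPM in insulin-led barcodes grouped by their percent of *Ppy* and *Pyy* UMIs, with WT as circles, Npc1KO as squares and exact Poisson 95% intervals. *Rgs16* goes from 16.5 to 36.6 CPM in WT and from 19.9 to 63.0 CPM in Npc1KO between under 0.1% and 3 to 10%, and the group of 10% or more holds only 16 and 45 barcodes.

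As a ratio of PP-rich over PP-poor relative to the median gene, *Rgs16* was at log2 0.84 (0.68 to 1.003) in WT and 0.85 (0.72 to 0.99) in Npc1KO. *Rgs2* was at 0.83 (0.67 to 0.99) and 0.54 (0.42 to 0.65). None of the 5 members tested in both libraries reached 2-fold in both, against 1.08% of all 8705 genes tested, and 1 member, *Rgs16*, was at least 1.5-fold higher in both, against 1.69% of all genes. Since *Rgs2* and *Rgs16* were picked for their patterns in these data, their place beside these shares supports nothing. Both genes of this pair kept the sign under all 10 alternatives in both libraries. Of these, the 20 CPM limit and the totals without hormone genes only shift all genes alike. For *Rgs5* the ratio was 0.62 in WT and -0.91 in Npc1KO, on the few barcodes with stellate markers described above. *Rgs9* and *Rgs17* were within 0.25 of the median gene in both libraries.

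*Rgs2* and *Rgs16* were both higher in PP-rich cells but were not found together more often in the same barcodes. At 5000 UMIs per barcode, 16.9% (11.6 to 23.3) of the PP-rich Npc1KO barcodes with *Rgs2* held *Rgs16*, against 22.3% (19.1 to 25.7) of those without *Rgs2*, and in WT the shares were 11.1% (5.21 to 20.1) and 20.1% (16.4 to 24.4). *Rgs16* was instead found with *Txnip*, a glucose-induced gene, in the insulin-led barcodes of Npc1KO. Of PP-rich Npc1KO barcodes with *Rgs16*, 77.6% (70.6 to 83.7) held *Txnip*, against 50.9% (46.9 to 54.8) of those without it, and in the PP-poor class 48.7% (39.2 to 58.3) against 28.6% (25.6 to 31.7). In WT the intervals overlapped, at 42.9% against 31.0% in PP-rich and 23.1% against 17.2% in PP-poor barcodes. They also overlapped in glucagon-led barcodes, at 50.0% against 45.2% in WT and 44.8% against 42.0% in Npc1KO. In PP-rich Npc1KO barcodes with under 0.01% stress-gene UMIs *Rgs16* and *Txnip* were at 33.6 and 187 CPM. With 0.1 to 0.5% they were at 78.3 and 435 CPM. The part of the stress-gene share in their joint detection was not tested. *Rgs2* was unrelated to *Txnip* within counting error in PP-rich Npc1KO barcodes, at 57.0% with and 56.4% without it. *Txnip* was itself higher in Npc1KO, at 121 and 310 CPM in PP-rich and 48.2 and 115 CPM in PP-poor cells.

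*Rgs16* was lower in the deepest insulin-led barcodes, while *Rgs2* in the PP-poor class changed little. In PP-poor insulin-led cells *Rgs16* went from 30.9 CPM in WT barcodes with 15000 to 25000 UMIs to 14.1 CPM in those with 35000 or more, and from 32.2 to 19.8 CPM in Npc1KO. In PP-rich cells it went from 54.7 to 20.2 CPM and from 67.2 to 32.2 CPM. *Rgs2* over the same steps of the PP-poor class was 19.5 and 18.7 CPM in WT and 41.7 and 37.4 CPM in Npc1KO. In PP-rich barcodes under 15000 UMIs, and in no other of these depth groups, *Rgs2* was higher in WT, at 72.1 CPM (49.3 to 102) against 50.4 CPM (35.1 to 70.04). The whole WT PP-rich class held *Rgs2* at 38.7 CPM.

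Of the 48 ratios of Npc1KO over WT for the 6 genes in 8 classes, 44 had at least 5 CPM in 1 of the libraries and were read against all genes that met this limit. A gene was counted as past the fold at 2-fold or more either way relative to the median gene. In PP-poor insulin-led cells 1 of 6 members was past it (*Rgs4*), against 0.652% of all genes, and in PP-rich insulin-led cells 2 of 6 (*Rgs4* and *Rgs5*) against 0.726%. In glucagon-led cells 0 of 6 were past it, where 0.434% of all genes were. *Rgs5* was the 1 of 6 members past it in somatostatin-led cells, against 3.56% of all genes, and the 1 of 6 in PP-led cells, against 0.943%, in both cases on the few barcodes with stellate markers. Endothelial-like cells had 0 of 4 members past it against 1.94%, and stellate-like cells 1 of 5 (*Rgs2*, on 28 and 9 UMIs) against 5.66%. In mesenchymal-like cells 3 of 5 (*Rgs4*, *Rgs5* and *Rgs16*) were past it, where 15.7% of all genes were, in 61 and 67 barcodes. The median gene itself was within 0.10 of equal levels on the log2 scale in every class.

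**Figure D5:**
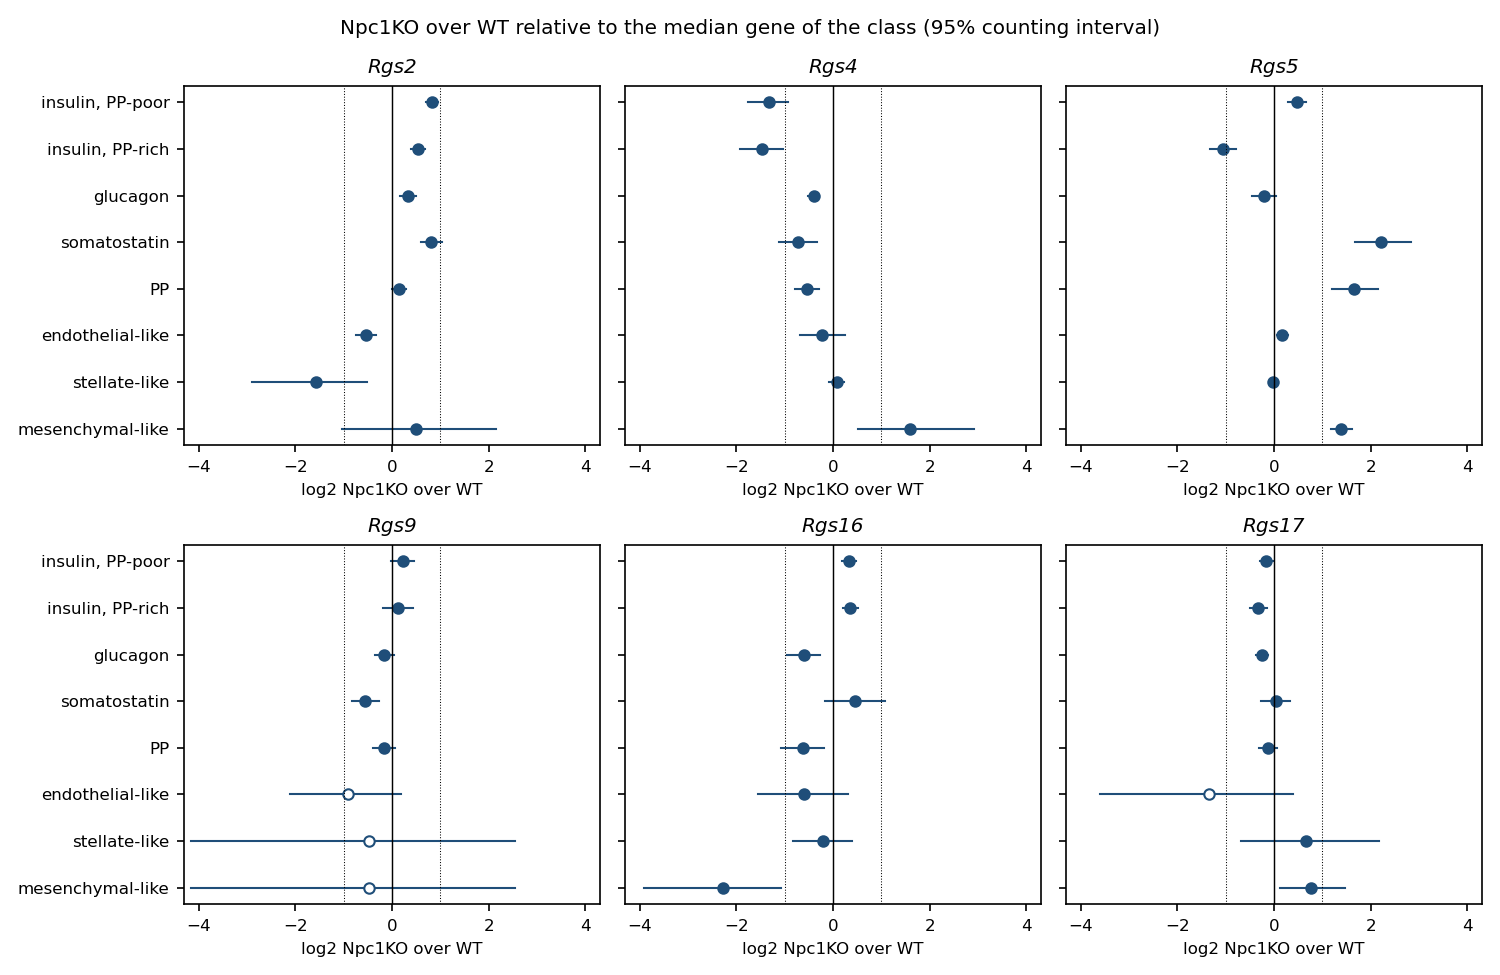
Log2 ratio of Npc1KO over WT relative to the median gene for each *Rgs* gene in the 8 classes, with conditional binomial 95% intervals as lines, open circles for genes under 5 CPM in both libraries and dotted lines at 2-fold. *Rgs2* lies to the right of 0 in the 5 hormone-led classes (0.14 to 0.82), and *Rgs4* lies to the left in the same classes (-1.48 to -0.40).

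The other genes of the RGS family that were tested did not reach the fold between genotypes. Of 18 other Rgs genes and partners, 4 to 8 were tested per class and 0 were past the fold in any of the 8 classes. Of all genes tested, 0.434% (glucagon-led) to 15.7% (mesenchymal-like) were past it. A count of 0 among so few genes thus does not set them apart from other genes. *Rgs11*, of the same subfamily as *Rgs9*, was the insulin-led member of the wider family. In the PP-poor class it was at 30.4 CPM in WT and 35.9 CPM in Npc1KO. *Rgs7*, another relative of *Rgs9*, was highest in somatostatin-led cells at 46.0 and 31.2 CPM. *Gnb5* followed *Rgs9* only loosely, at 46.0 and 38.2 CPM in somatostatin-led cells and 38.1 and 34.6 CPM in stellate-like cells, which had almost no *Rgs9*. *Rgs3* was the endothelial-like member, at 164 and 161 CPM.

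Among the 13 α subunit genes 10 were tested in every class, and 1 was past the fold in endothelial-like cells (*Gnaz*, 5.29 CPM in WT and 1.72 CPM in Npc1KO) and 1 in mesenchymal-like cells (*Gnai1*, 34.1 and 87.6 CPM). Of all genes, 1.94% and 15.7% were past it in these 2 classes. In hormone-led classes 0 of the α subunit genes were past it, where 0.434% to 3.56% of all genes were, with medians from -0.07 to 0.08. *Gnas*, which encodes the stimulatory α subunit, was highest in glucagon-led cells at 6659 and 5647 CPM and lowest in PP-poor insulin-led cells at 1097 and 1033 CPM. *Gnaz*, a target of the RGS17 group, was at 40.9 to 68.1 CPM in hormone-led WT classes and, like *Rgs17*, lower in the vascular classes, at 5.29 and 1.72 CPM in endothelial-like and 8.96 and 7.82 CPM in stellate-like cells. *Gnai1* was higher in PP-rich (44.9 and 47.3 CPM) than in PP-poor insulin-led cells (18.0 and 22.6 CPM), the same direction as *Rgs16*.

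Of the 30 listed receptor genes and their partner proteins, the only tested one past the fold in a hormone-led class between genotypes was *Sstr1*, a Gi-coupled somatostatin receptor. It was at 25.4 CPM in WT and 10.7 CPM in Npc1KO somatostatin-led cells. There 4 of 13 Gi-coupled, 3 of 8 Gq-coupled and 4 of 9 Gs-coupled genes of the list were tested, and 3.56% of all genes were past the fold. Between PP-rich and PP-poor insulin-led cells 2 were past 2-fold in both libraries, against 1.08% of all genes. Of the list, 4 Gi-coupled, 3 Gq-coupled and 5 Gs-coupled genes were tested in this comparison. *Ramp1*, which pairs with the receptors of the calcitonin family, was higher in the PP-rich class, at 95.9 against 23.4 CPM in WT and 89.4 against 24.3 CPM in Npc1KO. *P2ry1*, a Gq-coupled ADP receptor, was lower, at 14.8 against 34.5 CPM and 17.2 against 42.8 CPM.

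The genes most like each member were found by Pearson's r of log2(CPM + 1) over the 16 sums (8 classes in 2 libraries). Genes of at least 20 CPM in 1 sum numbered 9334. From these the hormone genes and the genes of the cell type marker lists, endocrine lists included, were left out. No gene of those lists could thus be named. The 16 points share 2 libraries and each class its cells, so r is a description. For *Rgs5* the closest genes were *Cox4i2* (r = 0.99), *Tmem100* and *Ano1*. For *Rgs9* they were *Caly* (r = 0.97), *Pcdh15* and *Smpd3*, all 3 highest in somatostatin-led cells. For *Rgs17* they were *Peg3* (r = 0.98), *F3* and *Meg3*, highest in mesenchymal-like cells, and for *Rgs4* *Ndufb10* (r = 0.96), *Prmt1* and *Ndufb6*, which are broadly expressed genes. *Rgs2* was closest to *Prrg2* (r = 0.93), *Gsr* and *Zfp608*. *Rgs16* had no close match among the genes ranked, with *Ttyh2* first at r = 0.76. Among the members themselves *Rgs2* and *Rgs9* were the most alike (r = 0.72), followed by *Rgs9* and *Rgs17* (r = 0.68) and the neighbors *Rgs4* and *Rgs5* (r = 0.60), while *Rgs5* and *Rgs9* were the most opposed (r = -0.75).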

How the data were processed

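Single-cell 3′ RNA was measured in 1 WT and 1 Npc1KO islet library (10x Genomics; the labels name the v3 kit and the methods of the study v2). The authors deposited filtered matrices of UMI counts per gene and barcode, whole numbers with no normalization, and the submitters' processing notes name Cell Ranger 3.1.0, Seurat 4.0.3 and the mouse build mm10. Kept barcodes were classed as described above. Barcodes with no hormone at 10% were matched to the stromal lists and to lists for macrophages, Schwann cells, B cells, T cells, neutrophils, acinar cells and duct cells. A barcode was classed if a stromal list alone had the largest share of its markers detected, with at least 3 detected. The others stayed in no class. This rule was set after the data were seen. The members and gene lists were chosen with earlier results of these data known. The named genes were the 6 members, *Npc1*, the 3 most alike genes per member, the pathway genes past the fold and the α subunits.

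UMIs were summed by class and library and divided by the class total (CPM). Ratios had 0.5 counts added and the median log2 ratio of genes of at least 5 CPM in either library subtracted. For shares, barcodes were thinned to 5000 UMIs, leaving out shallower ones (2 to 59 per class and library). No test was run, since each genotype was 1 library. Doublets were kept, because the rule for the kept barcodes does not remove them. The threshold of Scrublet marked 1.43% of WT and 0.164% of Npc1KO barcodes. An alternative removed the 6.85% and 6.11% with the highest scores. It moved 27 of 96 levels and 8 of 48 genotype ratios of the members out of their counting intervals. The scripts were checked on simulated counts. The tools were edgeR 4.0.16 in R 4.3.3 (for the TMM factor only) and scanpy 1.11.5, pandas 2.3.3, scipy 1.17.1 and numpy 2.4.6 in Python 3.11.15.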

Additional observations from a re-analysis of the deposited data

Results flagged for a closer look

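Each member except *Rgs9* had intervals of the log2 ratio of Npc1KO over WT on opposite sides of 0 in different classes. The share of all genes with such intervals was not taken, so this does not set the members apart from other genes. For *Rgs2* the ratio was 0.82 in PP-poor insulin-led and -1.58 in stellate-like cells, the latter on 28 and 9 UMIs. For *Rgs4* it was 1.58 in mesenchymal-like cells, on 9 and 28 UMIs, and -1.48 in PP-rich insulin-led cells. *Rgs5* was at 2.22 in somatostatin-led and -1.05 in PP-rich insulin-led cells, both on few barcodes with stellate markers. *Rgs16* was at 0.36 in PP-rich insulin-led and -2.28 in mesenchymal-like cells, on 31 and 6 UMIs in the latter. *Rgs17* was at 0.77 in mesenchymal-like and -0.33 in PP-rich insulin-led cells. The intervals cover counting error only, and the differences between classes were not tested, since each genotype was 1 library.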

How the results depend on the processing

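No paired analysis was possible because each genotype had 1 library. Among the members' genotype ratios past 2-fold, 1 changed sign: *Rgs2* in stellate-like cells was 0.47 with the leading hormone set at 20%. The ratios past 2-fold that came below it under at least 1 alternative, with the value nearest to 0, were *Rgs5* in PP-rich cells (-0.31 with the mitochondrial limit at 5%), in mesenchymal-like cells (0.82 without stressed barcodes) and in somatostatin-led and PP-led cells (0.19 and 0.03 without barcodes holding stellate markers), and *Rgs4* in PP-rich cells (-0.99 with no upper UMI limit). *Rgs16* in mesenchymal-like cells went from -2.28 to -1.05 without stressed barcodes. *Rgs5* in PP-poor cells, at 0.47, ranged from -1.15 with the mitochondrial limit at 5% to 3.17 with doublets removed. The causes were not tested. The numbers of genes past the fold in the order PP-poor, PP-rich, glucagon-led, somatostatin-led, PP-led, endothelial-like, stellate-like and mesenchymal-like were 57, 66, 43, 370, 94, 197, 605 and 1675, and 94 between PP-rich and PP-poor cells in both libraries. With at least 20 CPM required, which tests fewer genes, they were 21, 19, 19, 40, 26, 21, 126 and 566, and 35. At a 1.5-fold limit they were 278, 305, 176, 1237, 437, 647, 1666 and 3549. Taking hormone genes out of the totals raised the CPM of the other genes, so more of them were tested. The counts were then 117 (PP-poor), 137 (PP-rich), 70 (glucagon-led), 166 (PP-led) and 158 (PP-rich against PP-poor). The somatostatin-led count was 1416 with the leading hormone at 20%, the stellate-like count 1885 with the mitochondrial limit at 5%, and the endothelial-like count 314 without stressed barcodes and 316 without barcodes holding stellate markers, an alternative added after seeing the data. The causes of the shifts under these last settings too were not tested. The other counts stayed within 1.5 times. The mesenchymal-like values rest on 61 and 67 barcodes.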

Other observations

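The 407 WT and 242 Npc1KO kept barcodes that fell in no class also held the members. *Rgs2* was at 148 CPM (135 to 162) in WT and 141 CPM (129 to 154) in Npc1KO. *Rgs5* was at 114 and 340.2 CPM, *Rgs17* at 29.3 and 52.6 CPM, *Rgs4* at 19.9 and 32.9 CPM, *Rgs9* at 12.0 and 19.7 CPM and *Rgs16* at 7.57 and 5.81 CPM. Their median depth was 5663 UMIs in WT and 13882 UMIs in Npc1KO, so the 2 sets were not alike.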
